A study of Homo sapiens with 6 samples.

Results

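Genes that license replication origins and copy DNA at the fork were followed by RNA-seq in TPC1 cells, an established human papillary thyroid cancer line. The set was 55 genes given by symbol, and all 55 had a row among the 21173 genes of the count table. Their levels were compared between 3 libraries of TPC1 cells overexpressing TFCP2L1, labelled TFCP2L1 OE, and 3 libraries of TPC1 cells with vector, labelled WT. TFCP2L1 is a transcription factor of the CP2 family. The labels give neither the vector nor its promoter, do not say whether the overexpressing cells were a pool or 1 clone, and do not say that the replicates were separate cultures. The p-values therefore measure the spread between these libraries, which may be technical.

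DNA replication starts from origins that are marked by the origin recognition complex (ORC). In late mitosis and G1, CDC6 and CDT1 help ORC load the ring-shaped MCM helicase there, and in S phase the CDC7 kinase with its partner DBF4, together with cyclin-dependent kinase, turns this ring into an active helicase by adding CDC45 and the GINS complex. Behind the helicase, polymerase alpha with primase starts each strand, polymerases delta and epsilon extend it, and the PCNA clamp holds them on the template. Many of these genes are transcribed at the border of G1 and S phase under E2F factors, so their transcripts are common markers of proliferating cells. In bulk RNA, a larger share of cells in S phase and more transcript per cell cannot be told apart.

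Library totals ran from 38213520 to 38987434 reads in TFCP2L1 cells and from 37928516 to 38249193 in vector cells. The TFCP2L1 transcript had 13578, 13885 and 12333 reads in the TFCP2L1 libraries, against 0, 0 and 1 read in the vector libraries, as labelled. Mitochondrially encoded genes took 5.19%, 5.80% and 7.59% of reads in TFCP2L1 replicates 1, 2 and 3 and 5.14%, 6.72% and 5.13% in vector replicates 1, 2 and 3. Of 9 thyroid and epithelial markers, 7 had a row, without NKX2-1 and TSHR, and the summed level was 645 to 726 CPM (reads scaled to a common library total with TMM factors) in TFCP2L1 cells and 745 to 769 CPM in vector cells. PAX8 and KRT18 made up most of it, while EPCAM had 1 to 3 reads in TFCP2L1 cells and 1 to 20 in vector cells and KRT19 had 1 to 8 in TFCP2L1 cells and 0 to 1 in vector cells. None of the 5 of these markers tested by edgeR was called, and 2 of them had an unadjusted p under 0.05. Of 8 fibroblast markers 7 had a row, without DCN, and summed to 7.62 to 8.74 CPM in TFCP2L1 cells and 9.67 to 10.8 CPM in vector cells. Of 7 endothelial markers 5 had a row, without CDH5 and CLDN5, and summed to 1.28 to 1.79 CPM in TFCP2L1 cells and 0.850 to 1.34 CPM in vector cells. Of 8 leukocyte markers 5 had a row and summed to 99.0 to 126 CPM in TFCP2L1 cells and 70.2 to 86.2 CPM in vector cells. Most of that was CD68, which was called higher (0.63 ± 0.10, edgeR adjusted p = 0.000423). ITGAX had 80 to 114 reads in TFCP2L1 cells and 233 to 364 in vector cells and was called lower (-1.64 ± 0.22, 9.19e-05), and the general leukocyte marker PTPRC had 0 to 3 reads in TFCP2L1 cells and 0 to 7 in vector cells. The part of these markers in the results below was not tested.

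Replication genes were slightly higher in TFCP2L1 cells, by a median of 15.4%. Of the 55 genes, 53 had a positive log2 fold change, and the median of the 55 was 0.21 on the log2 scale, against 0.00 over all 14431 genes tested, of which 50.5% were positive. All 55 genes passed the filter on low counts, with 271 to 14177 reads in a library. By edgeR's quasi-likelihood test with Benjamini-Hochberg adjustment over all tested genes, 10 of the 55 rose (18.2%), 0 fell and 45 were not called at an adjusted p under 0.05. The background was 4.63% of all tested genes called higher and 6.94% called lower. At an unadjusted p under 0.05 by the same test, 30 of the 55 genes passed, all of them higher. Of all 14431 tested genes 3631 passed in either direction, and 11.8% passed and were higher. All 3 TFCP2L1 libraries lay above all 3 vector libraries for 31 of the 55 genes (56.4%), against 14.4% of all tested genes, and none lay below, against 15.6%. Summed over the 55 genes, the level was 3956, 3981 and 3734 CPM in the TFCP2L1 libraries and 3477, 3285 and 3504 CPM in the vector libraries, so the groups did not overlap.

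**Figure D1:**
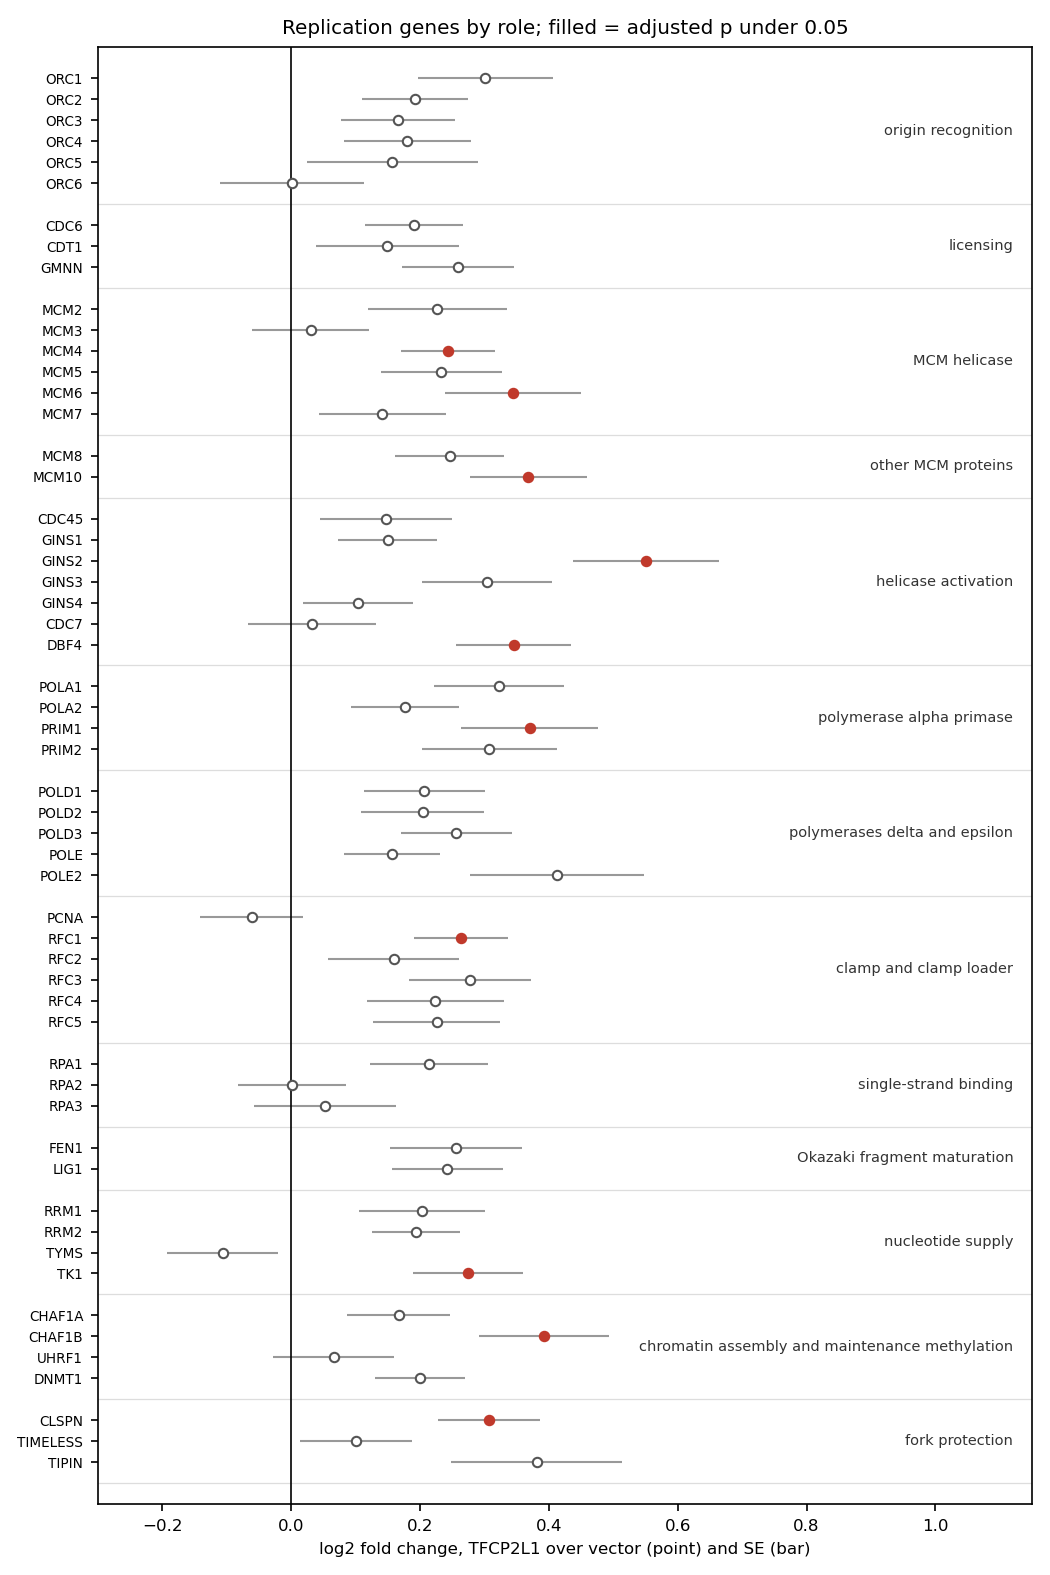
Log2 fold change of each replication gene, TFCP2L1 over vector (x axis), with its standard error as a bar, 1 row per gene grouped by role. Filled points are the 10 genes with an adjusted p under 0.05, and only PCNA and TYMS lie left of 0.

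The number of calls depended on single libraries, while the median did not. Leaving out TFCP2L1 replicate 1, 2 or 3 gave 5, 7 and 19 calls, and leaving out vector replicate 1, 2 or 3 gave 1, 4 and 3. Over all tested genes, these fits called 458, 679 and 766 higher, and then 298, 483 and 313. Without vector replicate 1, 1 of the 55 genes stood beside 298 of 14740 tested genes, so the share called was near the background. In the same 6 fits the median log2 fold change of the 55 genes lay between 0.19 and 0.24, and 49 to 53 of them were positive. GINS2 was the only gene of the 55 called in all 6 fits. With 3 against 3 libraries, an exact two-sided permutation test of a single gene cannot go below p = 0.1.

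**Figure D2:**
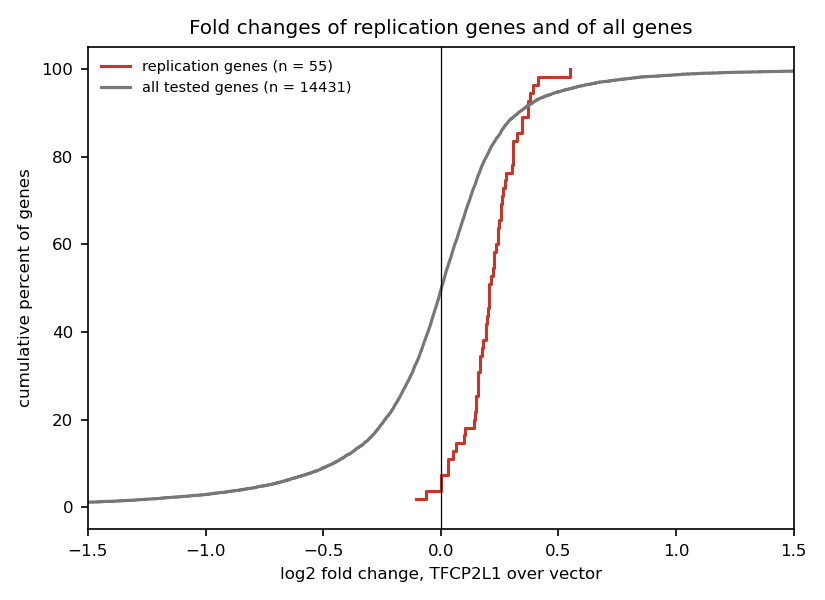
Cumulative percent of genes (y axis) by log2 fold change, TFCP2L1 over vector (x axis), for the 55 replication genes and for all 14431 tested genes. The curve of the replication genes lies to the right over most of its range, with its median at 0.21 against 0.00.

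None of the 6 ORC subunits was called. ORC1, the largest subunit and the one that varies most through the human cell cycle, had the smallest p among them. It was at 30.5, 34.2 and 36.0 CPM in TFCP2L1 cells, against 24.0, 28 and 29.8 CPM in vector cells. The groups did not overlap, with a log2 fold change of 0.30 ± 0.10 (SE) and an edgeR adjusted p of 0.0764. ORC2 also had groups that did not overlap (0.19 ± 0.08), whereas ORC3, ORC4 and ORC5 overlapped, with log2 fold changes of 0.16 to 0.18. ORC6, the smallest subunit, was at 41.9, 43.8 and 33.8 CPM in TFCP2L1 cells, against 44.6, 35.0 and 39.8 CPM in vector cells, a log2 fold change of 0.00 ± 0.11.

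None of the 3 licensing genes was called either. GMNN encodes geminin, which binds CDT1 and stops origins from being licensed again. It was at 40.4, 44.2 and 43.4 CPM in TFCP2L1 cells and at 37.6, 35.7 and 33.6 CPM in vector cells, with no overlap, a log2 fold change of 0.26 ± 0.09 and an edgeR adjusted p of 0.0666. CDC6, the ATPase that loads the helicase with ORC, had no overlap either (0.19 ± 0.08), while the groups overlapped for CDT1 (0.15 ± 0.11).

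Of the 6 subunits of the MCM2 to MCM7 ring, MCM4 and MCM6 rose and the other 4 were not called. MCM4 (GRCh38 chromosome 8, 47960185 to 47978160, plus strand) had 337, 362 and 331 CPM in TFCP2L1 cells, against 289, 278 and 302 CPM in vector cells. Its log2 fold change was 0.24 ± 0.07, with an edgeR adjusted p of 0.0414. MCM6 (chromosome 2, 135839626 to 135876426, minus strand) had 67.8, 82.9 and 59.2 CPM in TFCP2L1 cells, against 57.3, 51.9 and 56.1 CPM in vector cells. The lowest TFCP2L1 library, replicate 3, stood just above the highest vector library, and the log2 fold change was 0.34 ± 0.11 with an edgeR adjusted p of 0.0458. Both calls held in 1 of the 6 fits with a library left out, that without TFCP2L1 replicate 3. In the other 5, edgeR's adjusted p of MCM4 was 0.158, 0.171 and 0.0990 with vector replicate 1, 2 or 3 left out and 0.0795 and 0.0738 with TFCP2L1 replicate 1 or 2 left out. That of MCM6 was 0.10, 0.130, 0.129, 0.0978 and 0.155 in the same order. The MCM6 call was also lost with upper-quartile scaling (edgeR adjusted p = 0.0533) and limma-voom (adjusted p = 0.0581), and both calls with limma on log2(FPKM + 1), at adjusted p of 0.0535 for MCM4 and 0.114 for MCM6.

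Among the uncalled subunits of the ring, MCM2 (0.23 ± 0.11), MCM5 (0.23 ± 0.09) and MCM7 (0.14 ± 0.10) had positive log2 fold changes, and only MCM5 had groups that did not overlap. MCM3 was at 127, 132 and 108 CPM in TFCP2L1 cells and at 127, 107 and 126 CPM in vector cells, a log2 fold change of 0.03 ± 0.09. Of the exon bases of MCM2, 22.7% lie under an antisense gene, and the strand setting of the counting was not given in the sources used here. MCM8, which acts with MCM9 in repair by recombination and is not part of the ring, had a log2 fold change of 0.25 ± 0.08 (edgeR adjusted p = 0.0742) and no overlap. MCM10, a fork protein outside the ring that is needed to activate the helicase, rose. MCM10 (chromosome 10, 13161554 to 13211104, plus strand) had 45.5, 47.6 and 49.4 CPM in TFCP2L1 cells, against 33.5, 36.6 and 40.2 CPM in vector cells. The lowest TFCP2L1 library was above every vector library, with a log2 fold change of 0.37 ± 0.09 and an edgeR adjusted p of 0.0135, which became 0.101 without vector replicate 1.

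**Figure D3:**
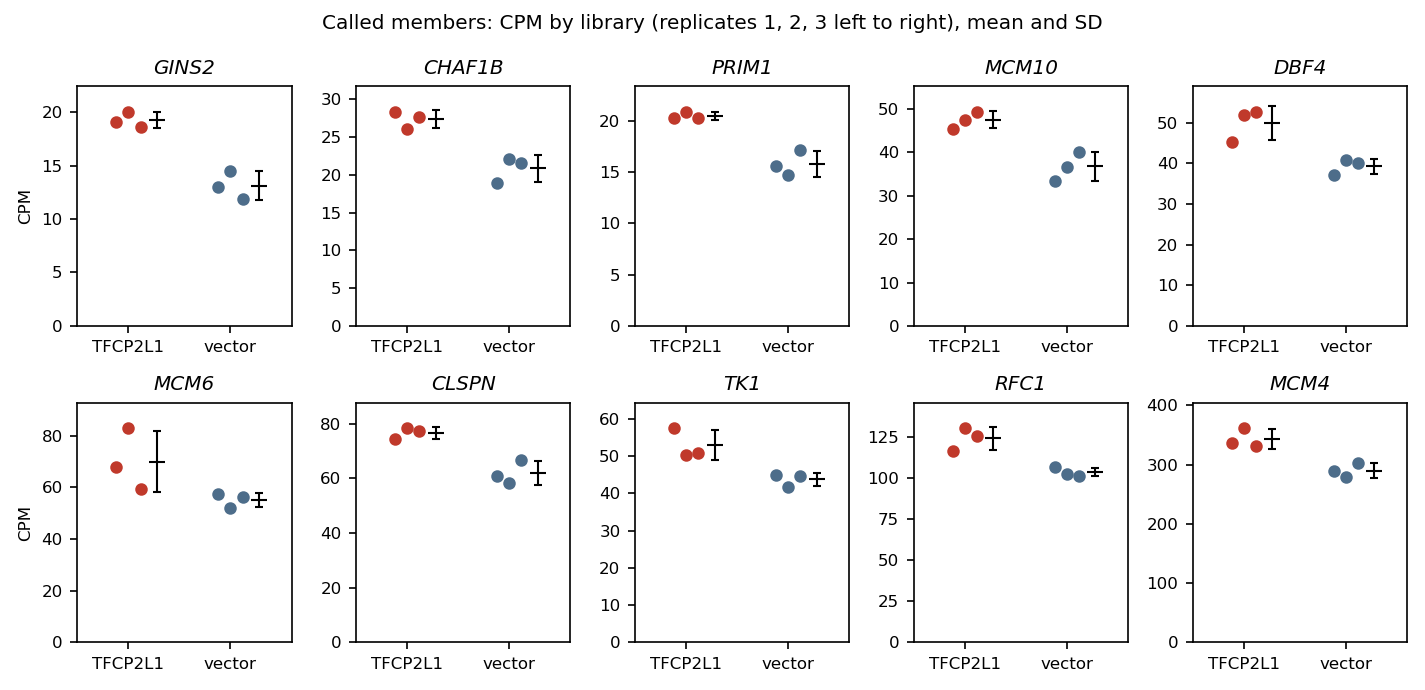
CPM (y axis, from 0) of the 10 genes with an adjusted p under 0.05 in each TFCP2L1 and vector library, with the mean and SD of 3 libraries beside the points, 1 panel per gene. In each panel the 3 TFCP2L1 points lie above the 3 vector points, by the smallest margin for MCM6 (59.2 CPM in the lowest TFCP2L1 library against 57.3 CPM in the highest vector library).

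Genes that switch the loaded ring into a working helicase included the largest change of the set. GINS2 (chromosome 16, 85676198 to 85690073, minus strand) encodes the PSF2 subunit of GINS, the complex that joins MCM2 to MCM7 and CDC45 in the active helicase. It had 19.1, 20.0 and 18.6 CPM in TFCP2L1 cells, against 13, 14.5 and 11.9 CPM in vector cells, or 46.5% more. The log2 fold change was 0.55 ± 0.11 with an edgeR adjusted p of 0.00415, and the adjusted p ran from 0.00215 to 0.0399 with a library left out. The other GINS genes were not called, and their groups did not overlap: the log2 fold change was 0.15 ± 0.08 for GINS1, 0.30 ± 0.10 for GINS3 and 0.10 ± 0.08 for GINS4. Whether GINS2 differed from the other subunits was not tested. Antisense genes cover 10.9% of the exon bases of GINS3 and 23.6% of those of GINS4.

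DBF4 rose, whereas CDC7, the kinase that it activates, was not called. DBF4 (chromosome 7, 87876216 to 87909541, plus strand) had 45.2, 52.0 and 52.7 CPM in TFCP2L1 cells, against 37.2, 40.8 and 40.0 CPM in vector cells. The groups did not overlap, with a log2 fold change of 0.35 ± 0.09 and an edgeR adjusted p of 0.0182, which was 0.109 without vector replicate 1 and 0.0682 without vector replicate 3. CDC7 was at 21.3, 24.4 and 23.7 CPM in TFCP2L1 cells and at 22.9, 22.3 and 22.6 CPM in vector cells (0.03 ± 0.10). CDC45, the helicase partner of GINS, had groups that overlapped and a log2 fold change of 0.15 ± 0.10.

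All 4 genes of polymerase alpha and primase, the complex that lays down RNA primers and extends them with the first DNA, had TFCP2L1 libraries above all vector libraries, and PRIM1 was called. PRIM1 (chromosome 12, 56731596 to 56752373, minus strand), the catalytic primase subunit, had 20.2, 20.9 and 20.2 CPM in TFCP2L1 cells, against 15.6, 14.7 and 17.2 CPM in vector cells. Its log2 fold change was 0.37 ± 0.11 with an edgeR adjusted p of 0.0327. The PRIM1 call held without TFCP2L1 replicate 3 but not without vector replicate 1 (0.119), 2 (0.129) or 3 (0.0555) or without TFCP2L1 replicate 1 (0.0767) or 2 (0.0594). POLA1, the catalytic polymerase subunit, stood just short of a call, at 33.1, 40.0 and 33.0 CPM in TFCP2L1 cells and 28.9, 26.4 and 29.5 CPM in vector cells (0.32 ± 0.10, edgeR adjusted p = 0.0505). PRIM2 (0.31 ± 0.10) and POLA2 (0.18 ± 0.08) were not called. Other annotated genes share 21.6% of the GENCODE exon bases of PRIM1 and 35.1% of those of POLA2. Part of their reads could belong to those genes, if the shared bases were counted, which is not known. For PRIM1 the deposited values imply a length of 1423 bases, against 2437 exon bases in GENCODE.

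The 5 subunits of the replicative polymerases were not called. POLE2, the accessory subunit of the leading-strand polymerase epsilon, had the smallest p, with 9.02, 10.9 and 10.2 CPM in TFCP2L1 cells and 7.20, 7.78 and 7.64 CPM in vector cells. These groups did not overlap, and the log2 fold change of 0.41 ± 0.14 had an edgeR adjusted p of 0.0608. The polymerase delta gene POLD3 (0.26 ± 0.09) and the catalytic gene POLE (0.16 ± 0.07) also had groups that did not overlap, while POLD1 (0.21 ± 0.09) and POLD2 (0.20 ± 0.10) overlapped.

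Of the sliding clamp and the 5 subunits of its loader, RFC1 rose and the others were not called. PCNA, the clamp, was at 122, 125 and 109 CPM in TFCP2L1 cells, against 132, 115 and 124 CPM in vector cells. The groups overlapped, and the log2 fold change was -0.06 ± 0.08. RFC1 (chromosome 4, 39287456 to 39366375, minus strand), the large subunit of the complex that opens the clamp and sets it on DNA, had 116, 130 and 126 CPM in TFCP2L1 cells, against 106, 103 and 101 CPM in vector cells. The groups did not overlap, the log2 fold change was 0.26 ± 0.07 and edgeR gave an adjusted p of 0.0275. With 1 library left out this p became 0.0834, 0.0918 or 0.137 (vector replicate 1, 2 or 3) or 0.0555 (TFCP2L1 replicate 2). Log2 fold changes of RFC2 to RFC5 were between 0.16 and 0.28, none called, and of these RFC3 alone had groups that did not overlap.

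The genes of RPA, the complex that coats single-stranded DNA, had the lowest median log2 fold change of the 13 roles, 0.05, and none was called. RPA1, the large subunit, was at 123, 128 and 103 CPM in TFCP2L1 cells and at 108, 91.5 and 106 CPM in vector cells, with overlap, a log2 fold change of 0.21 ± 0.09 and an edgeR adjusted p of 0.152. RPA2 was at 0.00 ± 0.08 and RPA3 at 0.05 ± 0.11. Neither of the genes that finish Okazaki fragments was called. LIG1, which seals the fragments, was at 41.6, 39.4 and 40.7 CPM in TFCP2L1 cells and at 36.4, 33.0 and 33.5 CPM in vector cells, with no overlap (0.24 ± 0.09, edgeR adjusted p = 0.0822). FEN1, which trims the flaps before ligation, had groups that overlapped and a log2 fold change of 0.26 ± 0.10.

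Among genes that supply deoxynucleotides, TK1 rose and TYMS had the lowest fold change of the set. TK1 (chromosome 17, 78174075 to 78187233, minus strand), the thymidine kinase of the salvage route, had 57.5, 50.2 and 51.0 CPM in TFCP2L1 cells, against 44.9, 41.7 and 44.6 CPM in vector cells. The groups did not overlap, and the log2 fold change was 0.27 ± 0.09 with an edgeR adjusted p of 0.0478. With 1 library left out the adjusted p became 0.118, 0.162 or 0.134 (vector replicate 1, 2 or 3) or 0.176 (TFCP2L1 replicate 1). The TK1 call was also lost with upper-quartile scaling (edgeR adjusted p = 0.0559), limma-voom (0.0509) and limma on log2(FPKM + 1) (0.0573). TYMS, thymidylate synthase of the de novo route, was at 145, 146 and 121 CPM in TFCP2L1 cells and at 157, 137 and 149 CPM in vector cells, with overlap and a log2 fold change of -0.11 ± 0.09 (edgeR adjusted p = 0.490). On the opposite strand ENOSF1 covers 39.2% of the exon bases of TYMS. RRM2, the regulated subunit of ribonucleotide reductase, was at 264, 265 and 266 CPM in TFCP2L1 cells and at 226, 232 and 238 CPM in vector cells. RRM2 was not called (0.19 ± 0.07, edgeR adjusted p = 0.0811) although the groups did not overlap, and its partner RRM1 overlapped (0.20 ± 0.10). A protein-coding gene annotated on the same strand shares 20.2% of the exon bases of RRM2.

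Of the genes that rebuild chromatin and copy DNA methylation behind the fork, CHAF1B rose. CHAF1B (chromosome 21, 36385378 to 36419015, plus strand), the middle subunit of chromatin assembly factor 1, had 28.4, 26.1 and 27.7 CPM in TFCP2L1 cells, against 18.9, 22.1 and 21.6 CPM in vector cells. The log2 fold change was 0.39 ± 0.10 with an edgeR adjusted p of 0.0183, which became 0.0712 with TFCP2L1 replicate 1 left out and 0.121 or 0.0620 with vector replicate 1 or 3 left out. CHAF1A, its large partner (0.17 ± 0.08), and the maintenance methyltransferase gene DNMT1 (0.20 ± 0.07) had groups that did not overlap, uncalled. UHRF1, which brings DNMT1 to hemimethylated DNA, overlapped (0.07 ± 0.09).

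In the fork protection group CLSPN rose. CLSPN (chromosome 1, 35720218 to 35769967, minus strand) encodes claspin, which carries the checkpoint signal from stalled forks to the kinase CHEK1. It had 74.3, 78.3 and 77.2 CPM in TFCP2L1 cells, against 60.7, 58.2 and 66.8 CPM in vector cells. The groups did not overlap, and the log2 fold change of 0.31 ± 0.08 had an edgeR adjusted p of 0.0183, which was 0.0954 without vector replicate 1 and 0.0924 without vector replicate 2. TIPIN had a log2 fold change of 0.38 ± 0.13 (edgeR adjusted p = 0.0760) with no overlap, and its partner TIMELESS overlapped (0.10 ± 0.09). A processed pseudogene on the same strand covers 21% of the exon bases of TIPIN.

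Libraries of each group also differed among themselves in these genes. Within vector cells, 31 of the 55 genes were lowest in replicate 2 (56.4%), against 35.6% of all tested genes, and within TFCP2L1 cells 25 were lowest in replicate 3 (45.5%), against 34.5%. For 20 genes (36.4%) both held, against 20.6% of all tested genes, among them all 6 subunits of the MCM ring, PCNA, RRM1, TYMS, FEN1 and DNMT1. Vector replicate 2 and TFCP2L1 replicate 3 also had the highest mitochondrial share of their groups, and the part of that share in the levels was not tested. Without both libraries, 2 against 2 remained, and 7 of the 55 genes were called higher, 5 of them among the 10 above. In the same fit, 548 of all 14514 tested genes were called higher. The median log2 fold change of the 55 genes was 0.21.

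**Figure D4:**
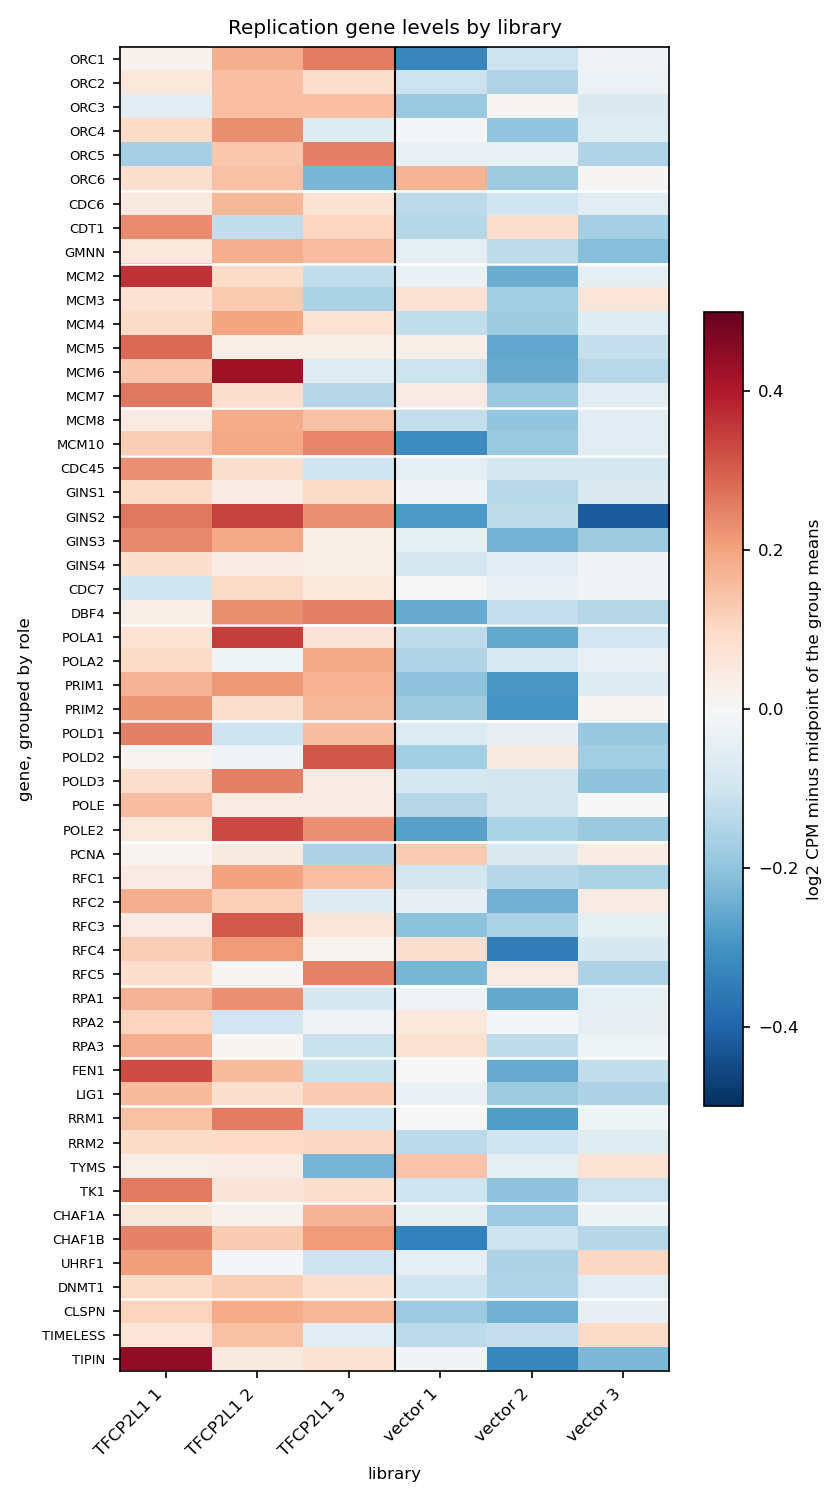
Heat map of the 55 replication genes (rows, grouped by role) in the 3 TFCP2L1 and 3 vector libraries (columns). Colour is log2 CPM minus the midpoint of the group means, red above and blue below. TFCP2L1 columns are mostly red and vector columns mostly blue, and MCM2 to MCM7 are each lowest within their group in TFCP2L1 replicate 3 and in vector replicate 2.

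Levels between genes were compared as FPKM, in which the authors had scaled reads by gene length and library total. In vector cells they spanned from 2.68 FPKM for ORC5 to 87.5 FPKM for PCNA. PCNA (85.4 ± 6.55 FPKM in TFCP2L1 cells and 87.5 ± 6.35 FPKM in vector cells, SD, n = 3) and TYMS (77.1 ± 8.33 FPKM in TFCP2L1 cells and 81.4 ± 5.80 FPKM in vector cells) had the 2 highest levels in vector cells, and they were the 2 genes with a negative fold change. MCM4 (82.9 ± 3.86 FPKM in TFCP2L1 cells and 68.8 ± 3.15 FPKM in vector cells) and RRM2 (77.9 ± 0.334 FPKM in TFCP2L1 cells and 66.8 ± 1.86 FPKM in vector cells) came next, and in vector cells their means differed by less than the SD of MCM4. Subunits of 1 complex were not at 1 level: in the MCM ring, MCM4 was at 68.8 FPKM and MCM6 at 14.5 FPKM in vector cells, with the other 4 between 16.7 and 34.8 FPKM. In GINS, GINS2 was the lowest, at 7.39 ± 0.286 FPKM in TFCP2L1 cells and 4.95 ± 0.475 FPKM in vector cells. GINS1 was the highest, at 18.8 ± 0.501 FPKM in TFCP2L1 cells and 16.7 ± 0.769 FPKM in vector cells. Over the 55 genes, Spearman's rho between mean FPKM and log2 fold change was -0.39, a description over genes that share the same 6 libraries. The order of levels rests on the gene lengths that the authors used. For some genes these were far from the GENCODE exon bases, as for RFC3 (11245 against 2874) and ORC6 (1764 against 4309). The 18 genes of lowest level had a median log2 fold change of 0.29, the 19 in the middle 0.17 and the 18 of highest level 0.20.

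**Figure D5:**
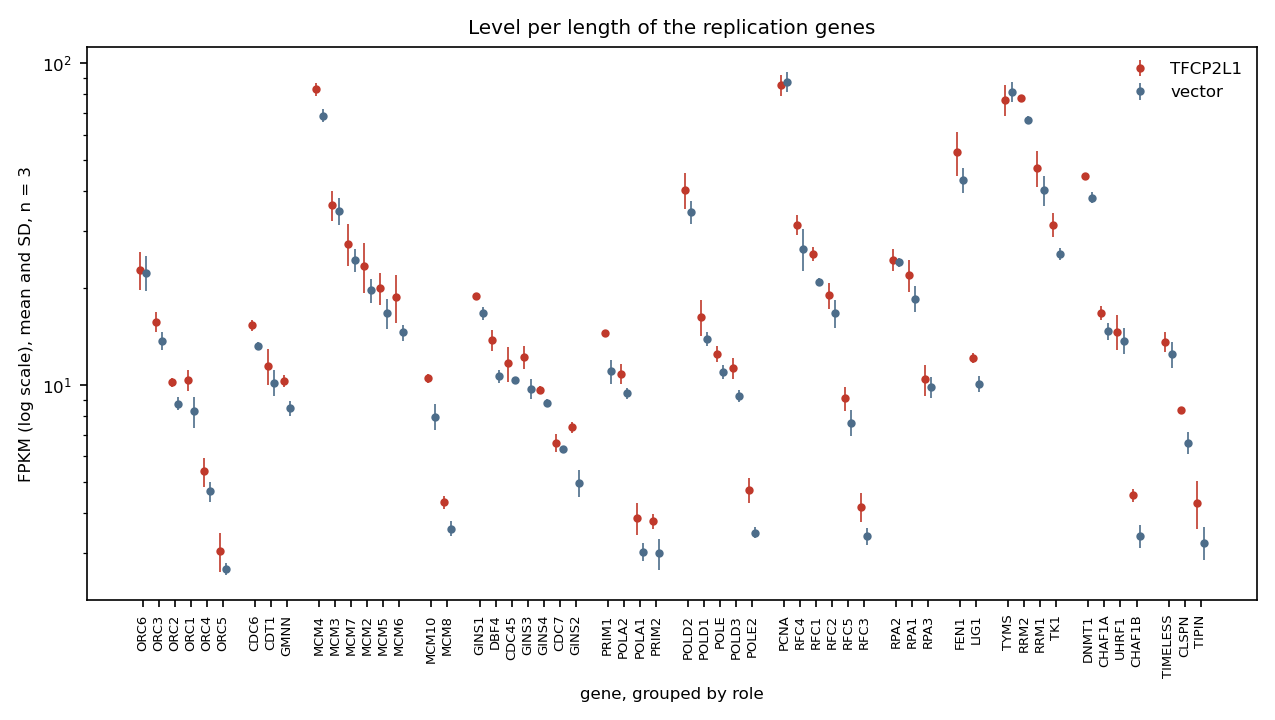
Mean FPKM with SD over 3 libraries (y axis, log scale) of each replication gene in TFCP2L1 and vector cells, grouped by role and sorted by the level in vector cells. Levels within a complex differ several-fold, as for MCM4 and MCM6, and the 2 groups lie close to each other at each gene.

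The promoters of these genes were read for words bound by E2F factors, which drive replication genes at the start of S phase. Sequences came from RefSeq on GRCh38.p14, in which 49 of the 55 genes had 64 promoter windows, and the 250 bases before each start were searched on both strands. An E2F word, TTTCCCGC, TTTCGCGC, TTTGCCGC or TTTGGCGC, stood in 18 of the 64 windows (28.1%), those of 17 genes, against 2.79% of all 35116 windows and 4.14% of the windows of tested genes. It stood in 2 of 10 windows of called genes (20.0%), those of GINS2 and MCM6 among the 9 called genes with a window. Of the windows of uncalled genes, 16 of 54 (29.6%) held it. Among these were windows of PCNA and TYMS, the 2 genes with a negative fold change. The stretches shown are those of these 2 called genes and of the 2 genes with a negative fold change. E2F words are in capitals, in the direction of transcription. Those of GINS2 and TYMS are 30 bases long because they overlap an exon annotated by GENCODE.
MCM6, chr2:135876444-135876603, minus strand: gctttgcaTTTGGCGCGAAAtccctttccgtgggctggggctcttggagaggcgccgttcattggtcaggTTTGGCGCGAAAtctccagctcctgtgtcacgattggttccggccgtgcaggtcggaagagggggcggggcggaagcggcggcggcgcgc
GINS2, chr16:85688967-85688996, minus strand: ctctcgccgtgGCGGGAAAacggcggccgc
PCNA, chr20:5126627-5126702, minus strand: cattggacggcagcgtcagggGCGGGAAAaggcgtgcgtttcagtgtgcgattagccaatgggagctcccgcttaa
TYMS, chr18:657603-657632, plus strand: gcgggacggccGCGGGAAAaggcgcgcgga
GINS2, PCNA and TYMS carried the same word, TTTCCCGC on the other strand, 31, 59 and 39 bases before the start. MCM6 carried TTTGGCGC at 152 and again at 90 bases before the start, each overlapping TTTCGCGC on the other strand. A match is a description of the letters and not of binding.

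Other words gave other shares. CCAAT, the word bound by NF-Y, stood in 36 of the 64 windows (56.2%), against 32.0% of all windows and 32.7% of the windows of tested genes. TTTGAA or TTCGAA, the cell cycle homology region typical of mitotic genes, stood in 2 windows (3.12%), those of MCM6 and RRM1, against 14.3% of all windows and 10.4% of the windows of tested genes. A pair of CP2 half-sites, CCAG and CCAG with 6 bases of any kind between them, a form of the word bound by TFCP2L1 and its relatives, stood in 8 windows (12.5%) of 6 genes, MCM10, TK1, RFC5, TIPIN, ORC6 and CDC45, against 3.27% of all windows and 3.15% of the windows of tested genes. Of these 6 genes, MCM10 and TK1 were called. The word thus stood in 2 of 9 called genes with a window and in 4 of 40 uncalled genes with one. Counted by gene, it stood in 6 of 49 genes of the set, against 1110 of all 27305 genes with a window and 496 of 11310 tested genes with one. Both calls were lost with some library left out, as given above, and whether the word goes with the calls was not tested.

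Other replication genes, a list of 42 from outside the set of which 40 were tested, had 31 positive log2 fold changes. Of the 40, 7 rose (17.5%), 1 fell and 32 were not called, with a median log2 fold change of 0.16. Over all tested genes 4.63% were called higher and 6.94% lower, so the share that fell was not above the background. SAMHD1, which breaks down deoxynucleotides and is also known as an interferon-induced gene, had 82.6, 87.8 and 84.3 CPM in TFCP2L1 cells, against 49.8, 48.8 and 49.8 CPM in vector cells (0.78 ± 0.07, edgeR adjusted p = 2.96e-06). The histone chaperone gene ASF1A had 41.9, 45.1 and 39.8 CPM in TFCP2L1 cells, against 32.8, 28.7 and 32.1 CPM in vector cells (0.44 ± 0.09, 0.00481), and HELLS, a chromatin remodeller tied to DNA methylation, had 63.9, 62.7 and 61.8 CPM in TFCP2L1 cells, against 49.1, 46.7 and 49.3 CPM in vector cells (0.38 ± 0.08, 0.00362). These 3 were called in all 6 fits with a library left out. RRM2B, the p53-induced relative of RRM2, fell to 101, 124 and 96.9 CPM in TFCP2L1 cells, against 136, 125 and 139 CPM in vector cells. Its log2 fold change was -0.31 ± 0.09 with an edgeR adjusted p of 0.0359, which became 0.146 or 0.0691 with TFCP2L1 replicate 1 or 3 left out and 0.130 or 0.168 with vector replicate 1 or 3 left out.

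PCLAF, TICRR and TOP1, which also rose, were called in fewer of these fits. The PCNA-associated gene PCLAF rose by 0.39 ± 0.10, and its edgeR adjusted p became 0.0901 with TFCP2L1 replicate 1 left out and 0.0970 or 0.121 with vector replicate 1 or 3 left out. The origin firing gene TICRR (0.34 ± 0.09) was called without TFCP2L1 replicate 1 and not in the other 5 fits (edgeR adjusted p from 0.0579 to 0.106), as was TOP1, a topoisomerase that relaxes DNA ahead of the fork (0.25 ± 0.08, from 0.0669 to 0.189).

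The genes that time S phase, a list of 30, were mixed. Of the 30, 5 rose (16.7%), 2 fell and 23 were not called, with a median log2 fold change of 0.03. Over all tested genes 4.63% were called higher and 6.94% lower, so the share that fell was near the background. CDKN1A, a p53 target that inhibits cyclin-dependent kinases, fell to 192, 174 and 202 CPM in TFCP2L1 cells, against 290, 297 and 286 CPM in vector cells (-0.62 ± 0.08, edgeR adjusted p = 3.77e-05). CDKN2B, an inhibitor of CDK4 and CDK6, fell to 10.3, 9.64 and 7.67 CPM in TFCP2L1 cells, against 23.9, 20.0 and 26.4 CPM in vector cells (-1.35 ± 0.14, 5.99e-06). Both were called in all 6 fits with a library left out.

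The 5 genes that rose were the E2F repressor genes E2F7 (0.39 ± 0.09) and E2F8 (0.52 ± 0.12), FBXO5, an inhibitor of the anaphase-promoting complex (0.39 ± 0.09), CDKN2C, an inhibitor of CDK4 and CDK6 (0.36 ± 0.11), and RBL1, a relative of RB1 (0.30 ± 0.09). Other repressors and inhibitors of the list were not called, among them RB1 (0.05 ± 0.07), RBL2 (0.23 ± 0.08), CDKN1B (-0.05 ± 0.08) and CDKN2A (-0.02 ± 0.15). The activator E2F1 was at 22.5, 18 and 18.7 CPM in TFCP2L1 cells and at 24.4, 20.3 and 19.9 CPM in vector cells, and was not called (-0.13 ± 0.12). Without vector replicate 1, edgeR's adjusted p was 0.0566 for E2F7, 0.0696 for E2F8 and 0.0586 for FBXO5, and without vector replicate 3 it was 0.0750 for E2F8. CDKN2C was called without TFCP2L1 replicate 2 and not in the other 5 fits (0.0513 to 0.156), as was RBL1 (0.0937 to 0.152).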

How the data were processed

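The 6 libraries were prepared from TRIzol-extracted RNA with a VAHTS Universal V6 kit, per the labels' protocols. The submitters' processing notes name fastp, HISAT2, HTSeq and GRCh38.p13, without versions. The authors deposited raw read counts and FPKM values per gene. Dividing counts by FPKM and library total gave 1 length per gene to within 0.000115%, so FPKM is no independent measurement. Columns were matched to samples by group and replicate number.

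Counts were tested with edgeR 4.0.16 (R 4.3.3): filterByExpr (14431 genes), TMM scaling, and the robust quasi-likelihood test over all 6 libraries, two-sided, with Benjamini-Hochberg adjustment over all tested genes. The edgeR comparison was tested on simulated data. CPM uses TMM-scaled totals. SE was taken as the size of the log2 fold change over the root of the F statistic. Depth differed little between libraries. The biological coefficient of variation common to all genes was 10.8%, and for a few members the spread of 3 replicates was below their counting error. No library was a copy of another: within groups, counts varied beyond sampling noise (chi-square per gene 7.75 to 45.0).

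Positions and exon overlaps come from GENCODE v29 on GRCh38, promoters from RefSeq on GRCh38.p14. Gene lengths implied by FPKM differed from the GENCODE exon bases, as for MCM2 (3523 against 4902) and RRM2 (3434 against 5323). The overlap shares therefore need not hold for the gene models that were counted. Members were named in full where called, or where they had the smallest p of a role with no call; up to 8 called genes of each other list were named, except 1 that is not reported here. E2F1, RB1, RBL2, CDKN1B, CDKN2A, the single cell type markers given by value and the other uncalled members given library by library were chosen after their values were seen. Members and lists were chosen with earlier results of these data known. Alternatives were other scalings and filters, DESeq2 1.42.0, limma-voom and limma (3.58.1) on log2(FPKM + 1), a replicate block, and leaving out each library; leaving out 2 libraries together was added after seeing the data.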

Additional observations from a re-analysis of the deposited data

How the results depend on the processing

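The median log2 fold change of the 55 replication genes stayed between 0.19 and 0.24 in every fit run, and the median of all genes moved by at most 0.03. No gene of the 55 was called lower in any fit. The number called higher, 10, was 19 with library totals in place of TMM, 17 with DESeq2 and 3 with the replicate block (DBF4, GINS2 and MCM10, so that CHAF1B, CLSPN, MCM4, MCM6, PRIM1, RFC1 and TK1 were lost), and between 8 and 15 under the other scalings, filters and limma. Over all tested genes, the number called higher moved too, from 668 in the main fit to 884 with library totals and 862 with DESeq2. Under the other scalings, filters and limma it lay between 540 and 919, the last among 21173 genes without a filter on low counts. With the replicate block, 328 genes in all rose and 649 fell, other replication genes had 3 higher and 0 lower, and S phase control genes 3 higher. Other replication genes had 4 higher and 0 lower with limma on log2(FPKM + 1), and 0 lower with library totals. Without both libraries of highest mitochondrial share, 0 other replication genes were lower and 3 S phase control genes higher. With each library left out in turn, members higher ran from 1 to 19, other replication genes higher from 3 to 8 and lower from 0 to 1, S phase control genes higher from 0 to 6 with 2 lower, and all genes higher from 298 to 766 and lower from 621 to 1106. The cause of these moves was not tested. Deviations from the group mean of same-numbered libraries correlated at 0.188, -0.307 and -0.235 for replicates 1, 2 and 3. With 3 libraries a group, such correlations depend on each other and cannot decide whether the replicate numbers pair the libraries. Vector replicate 2 correlated with TFCP2L1 replicate 3 at 0.420, and vector replicate 3 with TFCP2L1 replicate 2 at 0.262. A block on pairs other than the replicate numbers was not fitted. Signs turned only near 0 and uncalled. ORC6 was at -0.00437 with upper-quartile scaling and -0.000605 with the block, and RPA2 was at -0.00463, -0.000603 and, with limma-voom, -0.000706. With a library left out, log2 fold changes ran from -0.0827 to 0.108 for ORC6, from -0.0557 to 0.0490 for RPA2, from -0.0277 to 0.118 for RPA3, from -0.0275 to 0.138 for UHRF1, from -0.00747 to 0.0894 for CDC7 and from -0.0457 to 0.113 for MCM3. The vector and the origin of the overexpressing cells were not given in the sources used here. With 3 libraries a group, 9 of the 10 calls were lost with some library left out, as given beside each gene.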
